A study of Mus musculus with 12 samples.

Results

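8 genes of hepatic glucose metabolism were followed in RNA sequencing libraries of mouse liver. They were Pck1, G6pc, Fbp1, Pcx, Pklr, Pfkfb1, Pfkfb3 and Slc2a2, and they were picked by symbol from the 41128 genes of the deposited table, with their difference between conditions in each sex already known. That difference is therefore described here without a test. The germ-free (GF) mice were C57BL/6 animals that stayed in sterile isolators until they were killed at 6 weeks of age. The conventionalized (CV) mice were littermates that left the isolators at weaning, on day 21, and lived for 3 weeks in cages with soiled bedding from another place in the facility. Each condition held 3 mice labelled male and 3 labelled female, with 1 library per mouse, so there were 4 groups of 3. No mutation, transgene or drug is named for any group, the microbes transferred with the bedding are not listed, and GF and CV mice also differed in housing. The condition contrast asks how late colonization by microbes bears on transcription in the liver.

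The liver keeps blood glucose stable between meals by making glucose and releasing it, and after meals it takes glucose up and breaks it down. Pcx (pyruvate carboxylase) and Pck1 (the cytosolic phosphoenolpyruvate carboxykinase) carry pyruvate carbon around the irreversible last step of glycolysis, Fbp1 (fructose-1,6-bisphosphatase) and G6pc (the catalytic subunit of glucose-6-phosphatase) complete the path to free glucose, and Slc2a2 encodes GLUT2, the main hexose carrier of the hepatocyte membrane. Pklr encodes the pyruvate kinase of liver, which works against Pcx and Pck1. Pfkfb1 and Pfkfb3 encode bifunctional enzymes that make and remove fructose-2,6-bisphosphate, an activator of phosphofructokinase and an inhibitor of Fbp1. Pfkfb1 is the typical liver form and Pfkfb3, whose kinase activity far exceeds its phosphatase activity, is known as an inducible form of proliferating, inflamed and hypoxic cells.

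Because transcription of several of these genes responds to hormones and to glucose, their promoters are shown where 1 of 7 short motifs was found near a start site and the gene is central to the values below, with Fbp1 added as the gene with the highest CV to GF ratio of the 8. The sequences are the 250 bases upstream of RefSeq transcription starts on GRCm38.p6, written 5′ to 3′ on the strand of the gene. All 8 genes were matched, with 14 start sites among them. Capitals mark matches on either strand. The first motif, TGACG, is the core of the cAMP response element. The E-box searched for was CACGTG. For forkhead factors the word was GTAAACA. The glucocorticoid receptor was represented by the short word AGAACA. For hypoxia response elements the core ACGTG was used. The TATA box was searched as TATAAA. The last word, CACGGG, is part of the carbohydrate response element and was added after the sequences had been read. ACGTG lies within CACGTG, so those matches coincide. The windows are chr2:173152823-173153072 on the plus strand for Pck1, chr11:101367466-101367715 on the plus strand for G6pc, chr13:62888283-62888532 on the minus strand for Fbp1, chr3:89136373-89136622 on the plus strand for the second start of Pklr, and chr2:11553930-11554179 and chr2:11502091-11502340, both on the minus strand, for Pfkfb3.
Pck1: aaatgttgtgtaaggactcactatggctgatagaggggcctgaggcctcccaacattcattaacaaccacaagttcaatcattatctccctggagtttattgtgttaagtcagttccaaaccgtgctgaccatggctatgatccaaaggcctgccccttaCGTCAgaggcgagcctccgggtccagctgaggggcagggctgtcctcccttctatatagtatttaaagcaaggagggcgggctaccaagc
G6pc: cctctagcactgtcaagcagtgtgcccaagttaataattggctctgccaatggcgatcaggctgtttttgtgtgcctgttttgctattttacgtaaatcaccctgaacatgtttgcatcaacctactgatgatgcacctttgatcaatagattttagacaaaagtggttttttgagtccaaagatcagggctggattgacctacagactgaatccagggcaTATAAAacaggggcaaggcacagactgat
Fbp1: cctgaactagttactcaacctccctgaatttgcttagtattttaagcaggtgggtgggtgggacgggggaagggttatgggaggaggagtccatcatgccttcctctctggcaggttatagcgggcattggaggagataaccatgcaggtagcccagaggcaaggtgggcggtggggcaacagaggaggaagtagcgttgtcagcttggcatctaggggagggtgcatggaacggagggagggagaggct
Pklr promoter 2: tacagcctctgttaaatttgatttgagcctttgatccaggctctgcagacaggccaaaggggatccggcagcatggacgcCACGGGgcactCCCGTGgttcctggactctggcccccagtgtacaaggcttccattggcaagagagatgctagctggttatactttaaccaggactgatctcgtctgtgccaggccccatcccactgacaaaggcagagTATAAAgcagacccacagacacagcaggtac
Pfkfb3 promoter 1: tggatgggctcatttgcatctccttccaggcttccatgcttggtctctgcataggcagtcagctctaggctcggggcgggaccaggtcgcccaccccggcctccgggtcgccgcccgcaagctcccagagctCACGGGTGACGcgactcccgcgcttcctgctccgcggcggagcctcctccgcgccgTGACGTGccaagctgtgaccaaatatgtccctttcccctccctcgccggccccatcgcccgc
Pfkfb3 promoter 2: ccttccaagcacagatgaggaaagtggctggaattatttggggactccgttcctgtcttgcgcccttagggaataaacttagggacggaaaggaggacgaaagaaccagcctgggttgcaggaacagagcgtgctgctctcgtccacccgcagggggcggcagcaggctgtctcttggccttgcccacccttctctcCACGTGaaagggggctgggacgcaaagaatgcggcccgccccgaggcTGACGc

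In these windows the reverse complement of TGACG began at -90 in Pck1, counted from the transcription start, while TATAAA began at -29 in G6pc. The window of Fbp1 held none of the 7 motifs. Promoter 2 of Pklr held CACGGG at -170, its reverse complement at -159 and TATAAA at -31. Promoter 1 of Pfkfb3 held TGACG at -112 and -62, CACGGG at -118, and ACGTG at -60, which overlaps the second TGACG. Promoter 2 of Pfkfb3 held CACGTG at -53 and TGACG at -6. Such short words are common: of 32851 promoters of the same length, 17.8% held TGACG, 16.6% ACGTG, 16.1% AGAACA, 12.4% TATAAA, 8.46% CACGGG, 6.02% CACGTG and 3.17% GTAAACA. A match describes the letters and is not evidence of binding.

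Values are the deposited read counts per gene after division by 1 size factor per library, and differences are on the log2(value + 1) scale with the standard error (SE) of a limma fit to all 12 libraries. A gene is called, or said to rise or fall in CV livers, where its p adjusted over all genes tested was below 0.05. The libraries held 5993619 to 15290835 reads, and all 8 genes had a mean value above 10 and were among the 11782 genes fitted. 9 very abundant loci, which include both mitochondrial rRNA genes, took 42.1% to 52.1% of the reads in GF males, 58.5% to 69.8% in GF females, 5.43% to 22.0% in CV males and 5.80% to 8.03% in CV females, so GF livers left 1811042 to 5262722 reads for all other genes and CV livers 6931429 to 14403918. Beside the mitochondrial rRNA genes, the loci were Lars2, Mir6236 and predicted genes with a mean share of at least 0.1% in GF libraries. Since only GF livers set that limit, the shares describe the libraries and do not test the condition. The mitochondrial rRNA genes, taken whatever their share, held 9.36% to 16.4% of reads in GF and 1.39% to 6.32% in CV livers. 4 Y-linked genes together had 796 to 1314 reads in 5 of the 6 libraries labelled male and 0 in the library labelled CV male 3. Xist, the RNA that coats the silenced X chromosome of females, was at 2382 in that library, against 4.68 to 21.3 in the other libraries labelled male and 1045 to 11928 in those labelled female. Both markers go against its label. It was kept as labelled. The male differences of the 8 genes with the deposited scaling and the ratios are also given without it. For the other listed genes the total counts are given without it. The male counts of single lists and the male differences of single genes are not. Hepatocyte markers were abundant in every group, with Alb at mean values from 100477 to 253376. The summed level of the 9 hepatocyte markers in the table ran from 226259 to 488669 in GF males, 120932 to 311560 in GF females, 431383 to 586737 in CV males and 503054 to 663042 in CV females. All CV libraries lay above all GF libraries for 2 of the 9 in males and 7 in females. Of all genes tested, 22% and 34% did so. The part of the hepatocyte markers in the values below was not tested. In bulk liver fewer cells of a type and less RNA per cell cannot be told apart.

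Among the enzymes that feed gluconeogenesis, Pck1 (ENSMUSG00000027513, chromosome 2, 173153048 to 173159273 in GENCODE on GRCm38, plus strand) was the most abundant of the 8 genes per kilobase of transcript in all 4 groups. Its values in GF males were 15749.9, 16884 and 14774, and in CV males 32818, 12926 and 17051. In GF females they were 14128, 13799.8 and 8064, and in CV females 24325, 25871 and 22476. The 3 CV females lay above the 3 GF females, at 2.02 times their mean, whereas CV males spanned the GF males because the library labelled CV male 1 lay far above them and CV male 2 below. The difference CV minus GF was 1.06 ± 0.39 (log2, SE, n = 3 and 3) in females and 0.29 ± 0.39 in males. The male value was -0.09 without CV male 1 and 0.38 without CV male 3. CV male 1 also differed from the other CV males in composition. The abundant loci took 5.43% of its reads, against 21.5% in CV male 2 and 22.0% in CV male 3. In CV females they took 5.80% to 8.03%. Whether this share bears on the high values of CV male 1, here and in the genes below, was not tested.

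Pcx (ENSMUSG00000024892, chromosome 19, 4510472 to 4621752, plus strand) makes the oxaloacetate that Pck1 uses. It had values of 1467, 1148 and 1454 in GF males against 4853, 1664 and 1839 in CV males. GF females had 1497, 1176 and 1405 and CV females 4129, 3762 and 4715. All CV libraries lay above all GF libraries of their labelled sex. The log2 difference was 0.87 ± 0.34 in males and 1.63 ± 0.34 in females, and the male value was 1.08 without CV male 3 and 0.38 without CV male 1, which lay above the CV females while both other CV males lay below them.

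Fbp1 (ENSMUSG00000069805, chromosome 13, 62864753 to 62888282, minus strand) had the highest CV to GF ratio of the 8 genes in both sexes. GF males had 2052, 2148 and 2062, and CV males 12960.3, 5099 and 5286. GF females had 910.2, 1907 and 1179, and CV females 11224, 11352 and 11698. CV livers thus held 3.73 times the GF mean in males and 8.58 times in females, with no overlap in either sex, and the CV females were alike to within 1.04 times from lowest to highest. The log2 difference was 1.75 ± 0.35 in males (1.31 without CV male 1 and 1.96 without CV male 3) and 3.17 ± 0.35 in females, above 98.9% and 99.7% of the 11782 genes respectively.

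G6pc (ENSMUSG00000078650, chromosome 11, 101367561 to 101377903, plus strand), which acts at the last step before glucose leaves the cell, took opposite directions in the sexes. Its values were 4689, 4071 and 2242 in GF males and 1506, 867 and 1203 in CV males. They were 1461, 1261 and 751 in GF females and 2278, 1486 and 1749 in CV females. CV males lay below GF males and CV females above GF females, in both cases without overlap, with the highest GF female (1461) close to the lowest CV female (1486). The log2 difference was -1.59 ± 0.33 in males (-1.61 without CV male 3) and 0.70 ± 0.33 in females. GF males had the highest mean, at 3667 ± 1273 (SD, n = 3), although GF male 3 lay just below the highest CV female. The other means were 1158 ± 366 in GF females, 1192 ± 320 in CV males and 1838 ± 404 in CV females.

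Slc2a2 (ENSMUSG00000027690, chromosome 3, 28697903 to 28731359, plus strand), the carrier through which glucose crosses the hepatocyte membrane, was at 769, 788 and 653 in GF males and 2315, 979 and 1171 in CV males. It was at 678, 880.4 and 539 in GF females and 1908, 1593 and 1561 in CV females. Here too every CV library exceeded the GF libraries of its labelled sex. CV minus GF on the log2 scale was 0.91 ± 0.30 in males and 1.29 ± 0.30 in females, and in males 0.54 without CV male 1 and 1.04 without CV male 3.

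**Figure D1:**
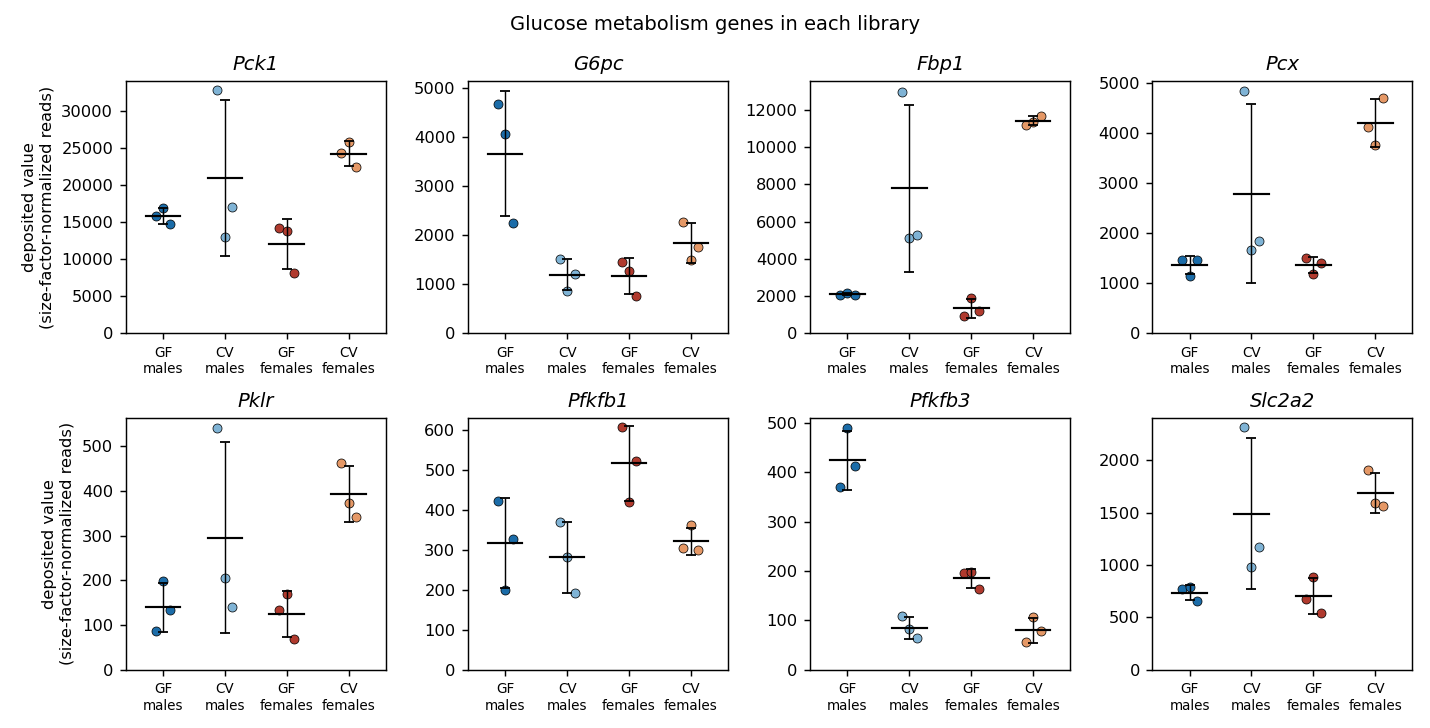
Deposited size-factor-normalized values of the 8 genes (vertical axes, linear and starting at 0) in the 12 libraries, by condition and labelled sex (horizontal axes). Points are libraries in order of replicate number, horizontal bars are group means and error bars are the SD of 3 libraries. Pfkfb3 is highest in GF males (371 to 488), and G6pc is highest in GF males. CV male 1 stands above the other 2 CV males in Pck1, Fbp1, Pcx, Pklr and Slc2a2.

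On the glycolytic side stood Pklr (ENSMUSG00000041237, chromosome 3, 89136142 to 89146784, plus strand), whose product makes pyruvate. GF males had 87.8, 198 and 133 and CV males 541, 206 and 141, while GF females had 133, 170.2 and 69.0 and CV females 463, 374 and 342. CV females lay above GF females, at 3.17 times their mean, and the groups of males overlapped. The log2 difference was 1.74 ± 0.43 in females and 0.91 ± 0.43 in males, where it was 0.36 without CV male 1 and 1.33 without CV male 3, whose value of 141 is the one that lies inside the GF male range. Pklr shares exon sequence with Hcn3 on the opposite strand, and whether counting used strand is not given in the sources used here.

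Pfkfb3 (ENSMUSG00000026773, chromosome 2, 11471433 to 11554077, minus strand) was lower in CV livers. Its values were 371, 488 and 412 in GF males, 196, 197 and 163 in GF females, 109, 82.7 and 63.6 in CV males, and 55.5, 106 and 78.9 in CV females. The 3 GF males formed the highest group and the 3 GF females the next, with no overlap between them or with any CV library, and the CV sexes were intermixed. These values rest on 291 to 414 reads per library in GF males, 74 to 130 in GF females and 70 to 209 in CV livers. The GF mean was 4.99 times the CV mean in males and 2.31 times in females, which is -2.33 ± 0.27 and -1.24 ± 0.27 on the log2 scale. Only 1.41% of the genes tested had a lower male difference, whereas 17.8% had a lower female difference. Without CV male 3 the male value was -2.14.

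Pfkfb1 (ENSMUSG00000025271, chromosome X, 150588229 to 150643878, plus strand) had values of 424, 199.6 and 327 in GF males and 369, 283 and 192 in CV males, with wide overlap. GF females had 607, 420.3 and 523 and CV females 305, 361 and 299, so every GF female lay above every CV female. Fitted differences were -0.16 ± 0.30 in males (0.09 without CV male 3) and -0.67 ± 0.30 in females. Its exons overlap those of Apex2 on the opposite strand.

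Counted over the genes, 3 of 8 in males had all CV libraries above all GF libraries (Fbp1, Pcx and Slc2a2), 2 had them below (G6pc and Pfkfb3) and 3 overlapped. Of all genes tested, 22% were higher and 21.1% lower in this sense. In females 6 of 8 lay above and 2 below (Pfkfb1 and Pfkfb3), where 34% and 31% of all genes did. In both sexes 3 of 8 lay above, against 18.6%, and Pfkfb3 alone lay below, against 17.9%. Since the genes were picked on this contrast, nothing is read from these counts.

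**Figure D2:**
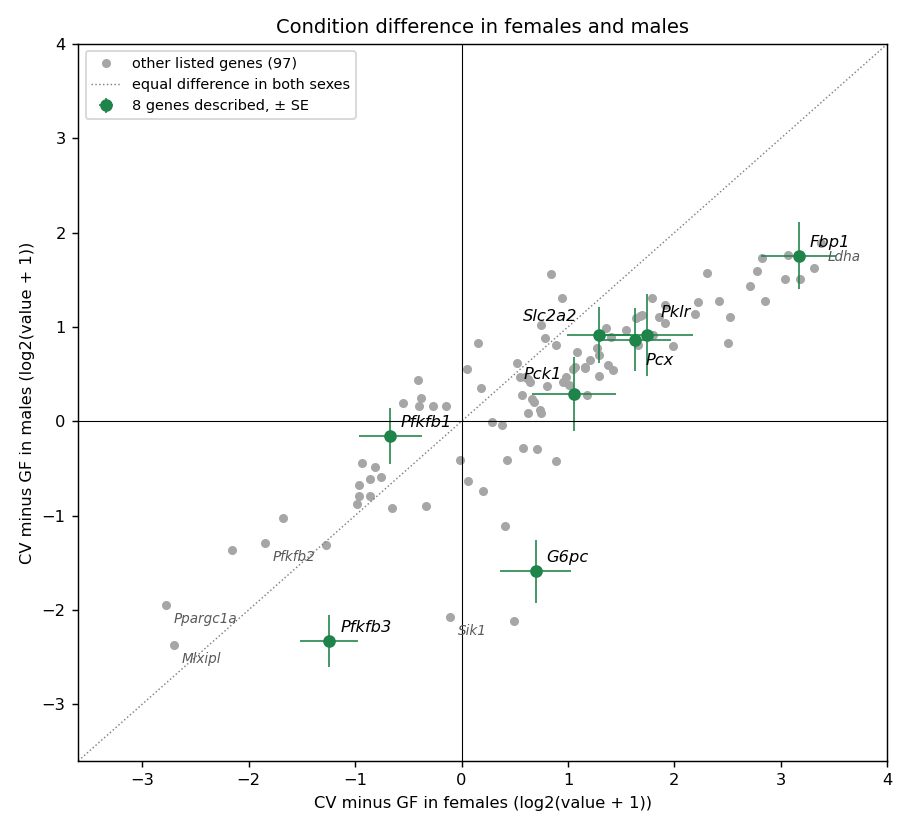
Difference CV minus GF in log2(value + 1) in females (horizontal axis) and males (vertical axis) for the 8 genes, in green with ± SE of the limma fit, and for 97 other genes of glucose metabolism, in grey. The dotted line marks equal differences. Fbp1 lies at 3.17 in females and 1.75 in males, Pfkfb3 at -1.24 and -2.33, and G6pc lies to the lower right, at 0.70 and -1.59.

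The condition differences depended on how libraries were scaled, because the abundant loci took such unequal shares. When values were scaled to all reads the median difference of all 11782 genes was 0.37 in males and 0.86 in females, and when they were scaled to reads outside the 9 loci it was -0.24 and -0.54, against 0.06 and 0.08 for the deposited values. Pfkfb3 remained lower in CV livers under both scalings, at -2.02 and -2.63 in males and -0.44 and -1.87 in females. Fbp1 remained higher, from 1.45 to 2.07 in males and from 2.53 to 3.98 in females over the scalings tried. Pfkfb1 did not keep its direction, since it was 0.16 in males and 0.14 in females when scaled to all reads. G6pc in females ranged from 0.06 to 1.51 and Pck1 in males from -0.01 to 0.61. With the read share of mitochondrial rRNA or of the 9 loci as a covariate, the fitted differences of Pck1, Pcx and Pklr lay below 0 in both sexes, while Fbp1 and Pfkfb3 kept their sign.

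**Figure D3:**
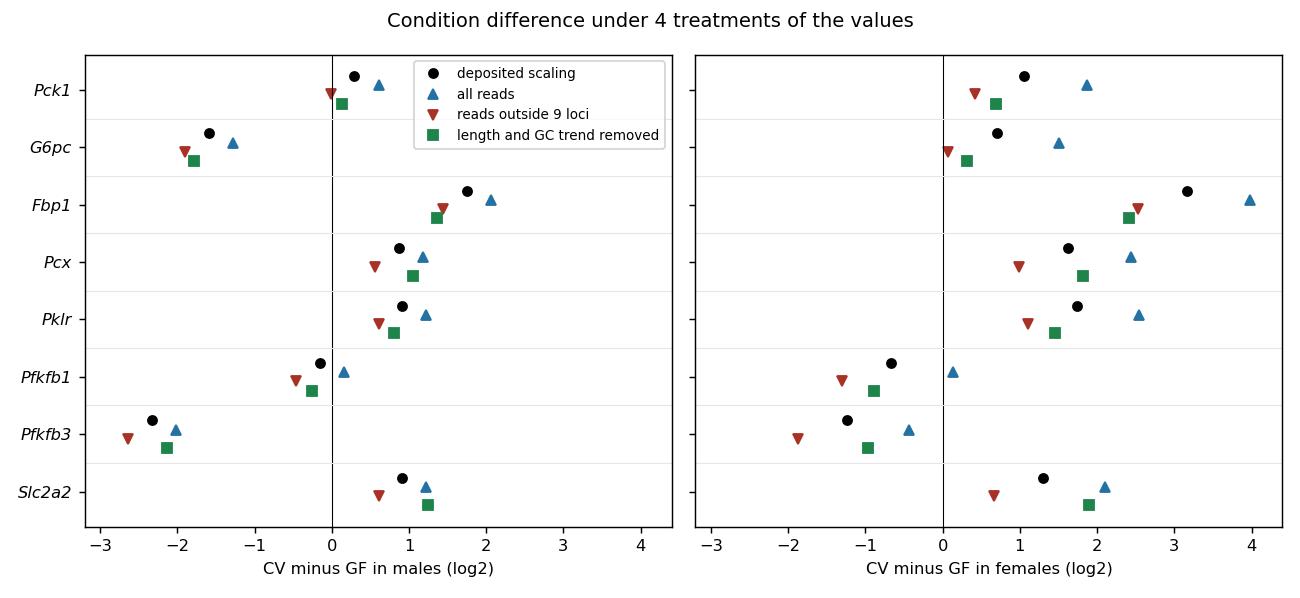
Difference CV minus GF (log2, horizontal axes) in males (left) and females (right) for each of the 8 genes with the deposited scaling (circles), scaling to all reads (upward triangles), scaling to reads outside the 9 abundant loci (downward triangles), and after removal of a per-library trend on transcript length and GC content (squares). Pfkfb3 and Fbp1 stay on one side of 0 in both panels, and Pfkfb1 crosses it.

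Ratios between 2 genes of the same library do not depend on the scaling, and 3 pairs of genes were compared per kilobase of transcript. Phosphofructokinase of liver (Pfkl) opposes Fbp1. The Pfkl to Fbp1 ratio was 0.0123, 0.0133 and 0.0174 in GF males and 0.00865, 0.0106 and 0.00845 in CV males. GF females had 0.0355, 0.00940 and 0.0413 and CV females 0.0101, 0.00720 and 0.00884. The male groups did not overlap, and GF female 2 lay within the range of the CV females. On the log2 scale the difference was -0.62 in males (-0.56 without CV male 3) and -1.47 in females.

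The Pklr to Pck1 ratio ran from 0.00524 to 0.0110 in GF males, 0.00776 to 0.0155 in CV males, 0.00804 to 0.0116 in GF females and 0.0136 to 0.0179 in CV females. The female groups were separate and the male groups overlapped, with log2 differences of 0.69 in females and 0.63 in males (0.95 without CV male 3).

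The Pfkfb3 to Pfkfb1 ratio compares the inducible form with the liver form. It was 0.489, 1.37 and 0.703 in GF males, 0.181, 0.262 and 0.174 in GF females, 0.165, 0.163 and 0.185 in CV males, and 0.102, 0.164 and 0.147 in CV females. In 1 GF male Pfkfb3 exceeded Pfkfb1 per kilobase. CV minus GF was -2.19 (log2) in males (-2.25 without CV male 3) and -0.58 in females. Of the summed level of the 4 Pfkfb genes per kilobase, Pfkfb3 made up 39.2% ± 11.4 (SD, n = 3) in GF males, 14.8% ± 3.09 in GF females, 13.3% ± 0.792 in CV males and 11.2% ± 2.47 in CV females. Pfkfb1 made up 50.0%, 72.2%, 77.9% and 81.8% in the same order. Pfkfb2, which is typical of heart, made up 6.17% to 12.4% on average, and Pfkfb4 at most 2.65% in any library, with 0 to 18 reads.

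**Figure D4:**
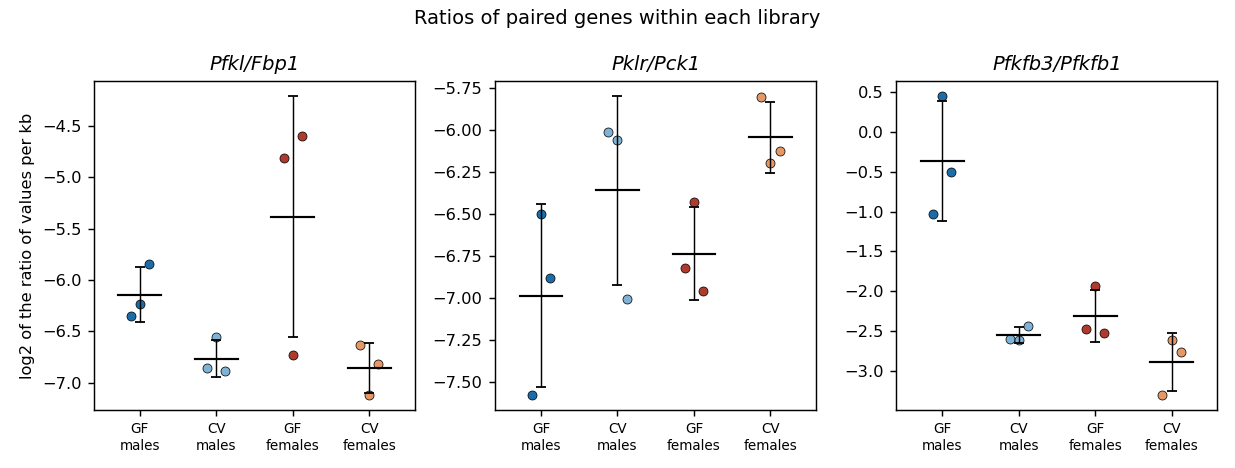
Log2 of the ratio of values per kilobase of transcript (vertical axes, scales differ between panels) for Pfkl/Fbp1, Pklr/Pck1 and Pfkfb3/Pfkfb1 in the 12 libraries. Points are libraries, horizontal bars means and error bars the SD of 3. GF males are highest in Pfkfb3/Pfkfb1, at 0.489 to 1.37 before the log.

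Per kilobase, the order of the 8 genes differed between the groups. Pck1 came first in every group, at a mean of 5793 per kilobase in GF males, 4398 in GF females, 7673 in CV males and 8880 in CV females. G6pc came next in GF males at 1519, where it overlapped Fbp1 at 1411, but stood behind Fbp1 in GF females at 479.6 and behind both Fbp1 and Pcx in CV males and CV females at 494 and 761, although its range overlapped that of Pcx in these 3 groups. Fbp1 was second in GF females, CV males and CV females, and its range overlapped that of Pck1 in CV males and in no other group. Pfkfb3 was seventh in GF males at 88.3, above Pklr at 48.2 without overlap, and last in GF females, CV males and CV females at 38.6, 17.7 and 16.7, where it overlapped Pklr in GF females. Pklr and Pfkfb1 also changed places, with Pklr last in GF males and above Pfkfb1 in CV females, where their ranges overlapped.

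The difference between the sexes averaged over conditions does not involve the contrast by which the genes were picked, and it was tested. None of the 8 genes passed the limma test with Benjamini-Hochberg adjustment over all genes, where 1.16% of all genes did, and edgeR and DESeq2 on the recovered reads also called 0. Pfkfb3, G6pc and Pfkfb1 were the 3 with an unadjusted p below 0.05, as were 11% of all genes. Pfkfb3 was 0.64 ± 0.19 (log2, SE) higher in males with an adjusted p of 0.169, G6pc was 0.51 ± 0.24 higher (adjusted p = 0.444) and Pfkfb1 was -0.50 ± 0.21 (adjusted p = 0.377). Over 25 alternative settings the adjusted p of Pfkfb3 ran from 0.0671 to 0.473. Without CV male 3 the differences were 0.74 for Pfkfb3 (adjusted p = 0.0870), 0.49 for G6pc (0.525) and -0.37 for Pfkfb1 (0.581), and 0 of the 8 genes were called.

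Within conditions the sexes are given as values without a test, because the same GF and CV libraries entered the choice of genes. In GF livers 4 of 8 genes (Pck1, G6pc, Fbp1 and Pfkfb3) had all 3 males above all 3 females, as did 10.2% of all genes, and the other 4 overlapped. The male to female ratio of means was 3.17 for G6pc, 2.29 for Pfkfb3, 1.57 for Fbp1 and 1.32 for Pck1. On the log2 scale this was 1.65 ± 0.33, 1.19 ± 0.27, 0.72 ± 0.35 and 0.44 ± 0.39. Pfkfb1 went the other way, at -0.75 ± 0.30, with a GF female mean 1.63 times that of GF males. In CV livers the sexes overlapped in all 8 genes, where 10.9% of all genes did not overlap, and the differences ran from -0.77 ± 0.34 for Pcx to 0.10 ± 0.27 for Pfkfb3. Without CV male 3 they ran from -0.66 for G6pc to 0.29 for Pfkfb3. The share of reads in the abundant loci also separated GF males (42.1% to 52.1%) from GF females (58.5% to 69.8%). The median of all genes, male minus female in GF, was 0.37 scaled to all reads and -0.29 scaled to reads outside the abundant loci. Over the 25 alternatives the GF difference ran from -0.56 to 0.79 for Pck1 and from 0.01 to 1.06 for Fbp1. It ran from 1.21 to 1.99 for G6pc, 0.66 to 1.53 for Pfkfb3 and -1.15 to -0.41 for Pfkfb1. The sign for Pck1 thus depended on the setting. The part of the share in these values was not tested.

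**Figure D5:**
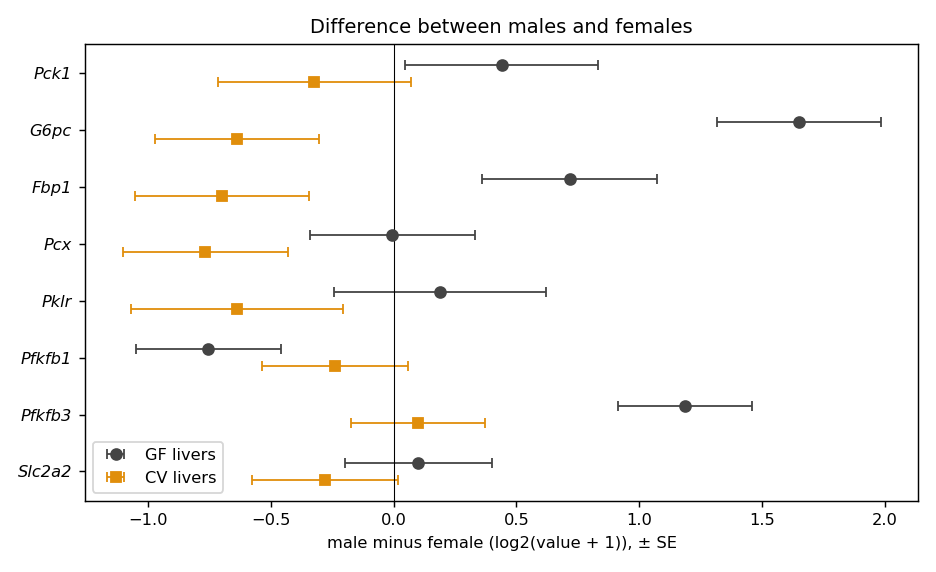
Male minus female difference in log2(value + 1), with ± SE of the limma fit (horizontal axis), for the 8 genes in GF livers (circles) and CV livers (squares). G6pc (1.65) and Pfkfb3 (1.19) lie farthest to the right in GF livers, and in CV livers Pfkfb3 is at 0.10 and G6pc at -0.64.

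Other genes of the same pathways came from 8 lists of 114 genes, written with earlier results of these data known. Beside the 8 genes they held 106, of which 97 were tested. In males 31 were called higher and 7 lower in CV livers, where 14.1% and 15.4% of all genes were (28 and 5 without CV male 3), and in females 51 higher and 13 lower, where 29.8% and 26% of all genes were. Over both sexes 54 were higher and 16 lower, where 32.3% and 28.7% of all genes were. Their median log2 difference was 0.47 in males and 0.78 in females, against 0.06 and 0.08 over all genes. The split moved with the scaling, from 42 higher and 5 lower in males and 70 higher and 4 lower in females when scaled to all reads, to 18 and 14 in males and 34 and 19 in females when the 9 loci were left out of the scaling. With the share of mitochondrial rRNA or of the abundant loci as a covariate 0 were called in either sex by limma, while 18 and 12 in males and 11 and 10 in females had an unadjusted p below 0.05. The groups accounted for 93.5% and 95.3% of the variance of these shares, so the shares and the condition cannot be told apart.

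In gluconeogenesis and its shuttles, 7 of 16 tested genes rose in CV males and 12 of 16 in CV females, and none fell in either sex. Over all genes 14.1% rose and 15.4% fell in males, and 29.8% rose and 26% fell in females. Mpc1, a subunit of the mitochondrial pyruvate carrier, rose by 1.51 ± 0.36 in males (adjusted p = 0.00728, limma) and 3.18 ± 0.36 in females (adjusted p = 9.11e-06). Mdh2, the mitochondrial malate dehydrogenase that moves oxaloacetate out as malate, rose by 1.44 ± 0.35 and 2.71 ± 0.35. Slc37a4, which carries glucose 6-phosphate to G6pc in the endoplasmic reticulum, rose in females by 1.16 ± 0.31 and was at 0.56 ± 0.31 in males (adjusted p = 0.176). Pck2, the mitochondrial counterpart of Pck1, was scarce, with mean values from 19.1 to 41.8, and passed the test in neither sex.

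In glycolysis, 11 of 21 genes rose and 1 fell in males, where 14.1% and 15.4% of all genes did. For females 12 rose and 3 fell, where 29.8% and 26% of all genes did. Ldha, which interconverts pyruvate and lactate, rose from 2705 to 10084 in males (1.89 ± 0.35, adjusted p = 0.00195, limma) and from 1719 to 16847 in females (3.38 ± 0.35, adjusted p = 6.57e-06). Tpi1 and Eno1, enzymes of the reversible middle steps that serve both directions, rose by 1.73 and 1.76 in males and by 2.82 and 3.06 in females. Pfkl rose by 1.12 ± 0.36 in males and 1.68 ± 0.36 in females. Hk2, a hexokinase typical of muscle and fat, fell by 1.68 in females, and Eno3, the muscle enolase, fell by 1.31 in males and 1.28 in females.

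Of the genes that set fructose-2,6-bisphosphate, Pfkfb2 fell in both sexes. Its values were 87.8, 89.2 and 137 in GF males, 163, 114 and 169 in GF females, 41.1, 50.9 and 33.6 in CV males, and 46.7, 41.0 and 33.7 in CV females. All CV libraries lay below all GF libraries. The difference was -1.29 ± 0.28 in males (adjusted p = 0.00410, limma) and -1.84 ± 0.28 in females (adjusted p = 6.23e-05). Pfkfb2 overlaps other annotated genes on both strands, so its counts are uncertain. Tigar, a fructose-2,6-bisphosphatase, passed in neither sex (0.08 ± 0.51 and 0.63 ± 0.51), and Pfkfb4 was too low to be tested.

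Among 20 genes of transcriptional control, 2 were called higher and 3 lower in CV males, where 14.1% and 15.4% of all genes were. For females 3 were called higher and 6 lower, where 29.8% and 26% of all genes were. Nothing is read from these counts. Mlxipl encodes ChREBP, the glucose-responsive activator known for driving Pklr. It fell from 8200 (GF male 1), 4458 and 5666 to 779.6, 1578 and 1211 in males, and from 6657, 3120.1 and 8269 to 813, 910.2 and 842 in females. Every CV library lay below every GF library, and the difference was -2.37 ± 0.36 in males (adjusted p = 7.42e-04, limma) and -2.70 ± 0.36 in females (adjusted p = 2.48e-05). Ppargc1a, a coactivator known to induce Pck1 and G6pc, fell by 1.94 on the log2 scale in males and by 2.77 in females. In CV females Pklr was higher while Mlxipl was lower, and Pck1 and G6pc were higher while Ppargc1a was lower. In males G6pc and Ppargc1a were both lower in CV livers, and Pck1 and Pklr overlapped between the conditions. Whether these factors bear on these genes here was not tested.

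Foxo1, an insulin-restrained activator of G6pc, fell by 0.75 on the log2 scale in females and was at -0.59 ± 0.22 in males (adjusted p = 0.0580). Sik1, a kinase that restrains the cAMP response, fell by 2.08 in males (adjusted p = 0.00227, limma) and was at -0.11 ± 0.40 in females. Cebpa, a hepatocyte factor that binds gluconeogenic promoters, rose by 1.30 ± 0.28 in males and 1.79 ± 0.28 in females. Hnf4a and Mlx, the partner of ChREBP, rose in females by 0.68 and 1.21, and Foxa2 rose in males by 0.83 and was at 0.16 ± 0.29 in females (adjusted p = 0.665). Onecut1 fell by 2.16 in females and was at -1.37 ± 0.55 in males.

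In the remaining lists, 1 of 4 hexose transporters rose in males (Slc2a1, 1.31 ± 0.31) and 3 of 4 in females (Slc2a1, Slc2a5 and Slc2a8). For the lists of this paragraph the shares over all genes are 14.1% higher and 15.4% lower in males. They are 29.8% and 26% in females. Of 15 glycogen genes 2 rose and 2 fell in males, and 5 rose and 3 fell in females, and nothing is read from these counts. Pgm2 rose in both sexes (1.57 ± 0.32 and 2.31 ± 0.32) and Phkb, a regulatory subunit of phosphorylase kinase, fell by 0.87 and 0.98. Pygl, the liver glycogen phosphorylase, rose in females by 1.43 ± 0.32. Of 9 genes of the pyruvate dehydrogenase complex and its kinases and phosphatases 5 rose in males and 7 in females, among them Pdha1 (1.23 ± 0.30 and 1.91 ± 0.30). Of 10 genes of the pentose phosphate path and fructose use 3 rose in males and 9 in females, among them Tkt (1.09 ± 0.29 and 1.64 ± 0.29), and none fell in either sex.

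Whether these differences depended on sex was tested as an interaction. 0 of the 97 listed genes were called by limma, edgeR or DESeq2, and 19 had an unadjusted p below 0.05 in limma. Over all genes 0% were called and 11.7% had such a p. Without the library labelled CV male 1, 11 of the 97 were called, and 291 of all 11782 genes.

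The genes whose values followed Pfkfb3 most closely over the 12 libraries were Klf3 (Pearson r = 0.955 of log2 values), Slc22a30 (0.935), Mbd1 (0.931), Zfp970 (0.929) and Adh6-ps1 (0.926). Such likeness was rare, since 13 genes, or 0.11%, exceeded 0.9 and the median gene was at -0.06. Adh6-ps1 had means of 1108 in GF males, 243 in GF females, 189 in CV males and 88.3 in CV females, which is the order of the groups for Pfkfb3. The points share condition, sex and library composition. When group means were removed, the highest values were those of Bhmt (0.934), Bmyc (0.873), Rarres1 (0.872), Lss (0.862) and Slc22a7 (0.854), none of which was in the first set. Among pairs of the 8 genes, deviations from the group means had the highest r for Pck1 and Slc2a2 (0.92). The lowest was that of G6pc and Pfkfb3 (-0.01). CV male 1 lay above the other CV males in both Pck1 and Slc2a2, and its part in their r was not tested.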

How the data were processed

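RNA from snap-frozen liver of 12 mice was made into stranded poly(A) libraries, 1 per mouse, and sequenced on an Illumina HiSeq instrument per the labels. The submitters' processing notes name HTSeq 0.6.1p1, DESeq2 and the build GRCm38. The aligner, the annotation and the strand setting are not given in the sources used here. The paper supplied with the series describes a different experiment, so no method was taken from it. The deposited unit is a normalized signal per gene, for which the authors divided read counts by 1 size factor per library. Every value was a whole number of reads divided by that factor, within 0.01 reads, and whole reads were recovered (5993619 to 15290835 per library). The labels name no molecular identifiers, so read numbers bound the counting error and nothing else.

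Groups came from the sample titles. limma 3.58.1 (R 4.3.3) was fitted to log2(value + 1) of 11782 genes with a mean value of at least 10, with 1 mean per group, a variance trend and Benjamini-Hochberg adjustment at 0.05. This scale understates changes of low genes. The 8 genes and all lists were chosen with earlier results of these data known. The condition contrasts of the 8 genes carry no test. Named beside the 8 were fixed partners (Pfkfb2, Pfkfb4, Pfkl, Slc37a4, Pck2, Ppargc1a, Foxo1, Mlxipl), up to 3 called genes per list, direction and sex by adjusted p, and the 5 genes most like Pfkfb3 on each of the 2 scales of likeness. Not every gene the rule allowed is named, and 1 is not reported here. Values per kilobase use the longest transcript in the mouse GENCODE release M21, which lists 97.9% of the identifiers. Promoters are from RefSeq (GRCm38.p6).

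25 alternatives covered pseudocounts, filters, scalings, edgeR 4.0.16 and DESeq2 1.42.0 on recovered reads, the replicate number as a block, a length and GC trend, each library left out in turn, and 2 read shares as covariates. The length and GC trend and the share of the abundant loci were added after the data had been seen. Replicate numbers are in the titles. Deviations from group means of same-numbered libraries correlated at 0.193, 0.118 and 0.173 between CV males and CV females, at 0.059, 0.403 and 0.068 between GF males and GF females, and at -0.228 to 0.0188 between conditions. By the criterion that every pair exceed 0.1, the sexes of CV mice passed, and the sexes of GF mice and the conditions did not. Libraries with different numbers were not compared, so no pairing of mice is read from these values. The fit was tested on simulated data.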

Additional observations from a re-analysis of the deposited data

Results flagged for a closer look

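G6pc was singled out because its condition difference pointed in opposite directions in the sexes, with no overlap of the libraries in either. CV minus GF was -1.59 on the log2(value + 1) scale in males and 0.70 in females. The difference between the sexes was not tested, because G6pc was chosen with these contrasts known. The male direction was the same in 25 of 25 alternatives and the female direction in 24 of 25. Some of these alternatives could not change it. Leaving out a library of the other sex, the filters on low values and the replicate block return the same fitted difference. The counts are therefore not a measure of robustness.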

How the results depend on the processing

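Of the listed genes, 38 were called in males, 64 in females, 70 over both sexes and 0 for the interaction. Leaving out 1 library gave 20 to 43, 52 to 70, 65 to 72 and 0 to 11. The male count was 20 without GF male 1, 25 without GF male 3, 24 without CV male 1 and 33 without CV male 3, while the calls over all genes went from 3474 to 1604, 2135, 2183 and 2974. The interaction count of 11 came without CV male 1 (291 over all genes), and scaling to all reads gave 1 interaction call (11 over all genes). With mitochondrial rRNA or the abundant loci as a covariate, 0 were called in males, females or both sexes (unadjusted p below 0.05 over both sexes in 13 and 11). With the replicate number as a block the counts were 38, 64, 70 and 0, and no call on the 8 genes or these counts changed. Differences of the 8 genes changed sign 22 times. Scaled to all reads, Pfkfb1 was 0.16 in males and 0.14 in females, and it was 0.087 without GF male 1 and 0.095 without CV male 3 in males. Pck1 in males was -0.088 without CV male 1 and -0.014 when scaled to reads outside the abundant loci. With the mitochondrial rRNA covariate, Pck1 was -0.30 in males and -0.34 in females, Pcx -0.38 and -1.28, Pklr -0.26 and -0.995, and Slc2a2 -0.089 in females. With the abundant loci covariate, Pck1 was -1.17 and -1.86, Pcx -0.61 and -1.32, Pklr -1.59 and -3.26, Slc2a2 -0.19 and -0.92, and G6pc -0.58 in females. The cause was not tested. Fbp1 and Pfkfb3 kept their direction in both sexes in 25 of 25 alternatives. As for G6pc, some of these alternatives could not change the fitted difference. With 3 libraries per group and 70 to 414 reads for Pfkfb3, small differences were not detectable.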

Other observations

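Markers of other cell types moved with condition and were not used in any comparison above. Of 7 lymphocyte markers in the table, 6 in males and 5 in females had all CV libraries below all GF libraries. Of all genes tested, 21.1% and 31% did so. Summed over the 7 markers, values were 187 to 241 in GF males and 192 to 344 in GF females. They were 59.9 to 93.0 in CV males and 63.1 to 69.4 in CV females. Of 8 endothelial markers, 2 in males and 5 in females were lower in this sense. Of 9 Kupffer cell and macrophage markers, 4 in males and 5 in females were higher, as were 22% and 34% of all genes tested. The endothelial sums were 1489 to 2456 in GF males, 2218 to 4002 in GF females, 664 to 1912 in CV males and 1316 to 1504 in CV females. Of 5 adipocyte markers, Lep was at 0 in every library and the group means of Adipoq and Plin1 were at most 2.65. Fabp4 had group means from 72.7 to 144 and Cidec from 14.0 to 57.3.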
